A study of Homo sapiens with 6 samples.

Results

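The genes of the proteasome were followed in untreated AID-DIvA cells with and without ARID1A. Members were all gene rows of the deposited count tables whose name is PSM followed by a letter from A to G and a number, which takes in the core subunits (PSMA, PSMB), the regulatory particle (PSMC, PSMD), the activators (PSME), the regulator PSMF1 and the assembly chaperones (PSMG). This rule gave 50 rows with 48 distinct names among 57820 rows, and 46 rows held enough counts to be tested. AID-DIvA cells are U2OS osteosarcoma cells that carry the AsiSI endonuclease in a form that enters the nucleus only after 4-hydroxytamoxifen, which these cells did not receive. RNA was sequenced from 3 WT and 3 ARID1A-KO samples, numbered 3, 4 and 5 in each genotype, and both genotypes carry the AsiSI construct. The knockout was made with Cas9 and a pair of crRNAs against ARID1A, a subunit of the SWI/SNF chromatin remodeler, and grown from clones. The sources used here do not state which clone was sequenced, so loss of ARID1A and differences between clones cannot be told apart. The paper's legends give 3 independent experiments, named biological replicates, for these data. The p-values measure only the spread between these samples and not that between clones.

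The proteasome is the ATP-dependent protease that degrades proteins tagged with ubiquitin in the nucleus and cytosol. Its core particle is a barrel of alpha and beta rings with the proteolytic sites inside, and its regulatory particle recognizes ubiquitin chains, removes them, and unfolds the substrate with a ring of ATPases. Interferons induce alternative catalytic beta subunits that form the immunoproteasome, which favours peptides for presentation on MHC class I, and the transcription factor NFE2L1 raises the subunit genes together when proteasome capacity falls short.

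ARID1A itself fell from 173 ± 6.67 CPM (SD, n = 3) in WT to 25.9 ± 1.38 CPM (SD, n = 3) in ARID1A-KO samples, where CPM is the count scaled to the library size after TMM normalization (log2 fold change -2.74, edgeR's quasi-likelihood test, adjusted p = 9.66e-08). Total counts per sample ranged from 54512105 to 84088708. Markers of the mesenchymal and osteoblast lineage had a summed level of 2142 to 2358 TPM (a level that accounts for transcript length, as deposited) in WT and 3033 to 3343 TPM in ARID1A-KO samples. Most of this sum was VIM, with means of 1556 TPM in WT and 2779 TPM in ARID1A-KO samples, so the sum does not by itself show osteosarcoma identity. Of these 8 markers, VIM was higher and SPARC, COL1A1 and ALPL were lower in ARID1A-KO cells, RUNX2 was not called, and SP7, BGLAP and COL1A2 were at or near 0. Markers of other cell types were low, with sums of 6.24 to 9.64 TPM for epithelial, 0.347 to 1.72 TPM for leukocyte and 0.0939 to 0.272 TPM for endothelial genes over all samples.

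Most proteasome genes differed little between genotypes. With a gene called at an adjusted p under 0.05 (edgeR), 9 of 46 tested members were called, compared with 36.2% of the 19599 genes tested. PSMA3, PSMB5 and PSMD13 were higher in ARID1A-KO cells, where 17.8% of all genes were called higher. PSMB1, PSMC1, PSMD2, PSMD3, PSMD5 and PSMG2 were lower, where 18.4% of all genes were called lower. With scaling to total counts alone the split of the members turned to 5 higher and 4 lower, and that of all genes turned the same way, from 3483 higher and 3616 lower to 4175 higher and 3081 lower. The median log2 fold change of the tested members was -0.01 and their range was -0.47 to 1.01, and the median of all genes tested was 0.0066. The members' median was positive with upper-quartile scaling (0.0044) and with total counts alone (0.035). The median absolute log2 fold change was 0.098 in the members and 0.266 over all genes. Since these are bulk samples, fewer cells of a type and less RNA per cell cannot be told apart in any of these values.

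**Figure D1:**
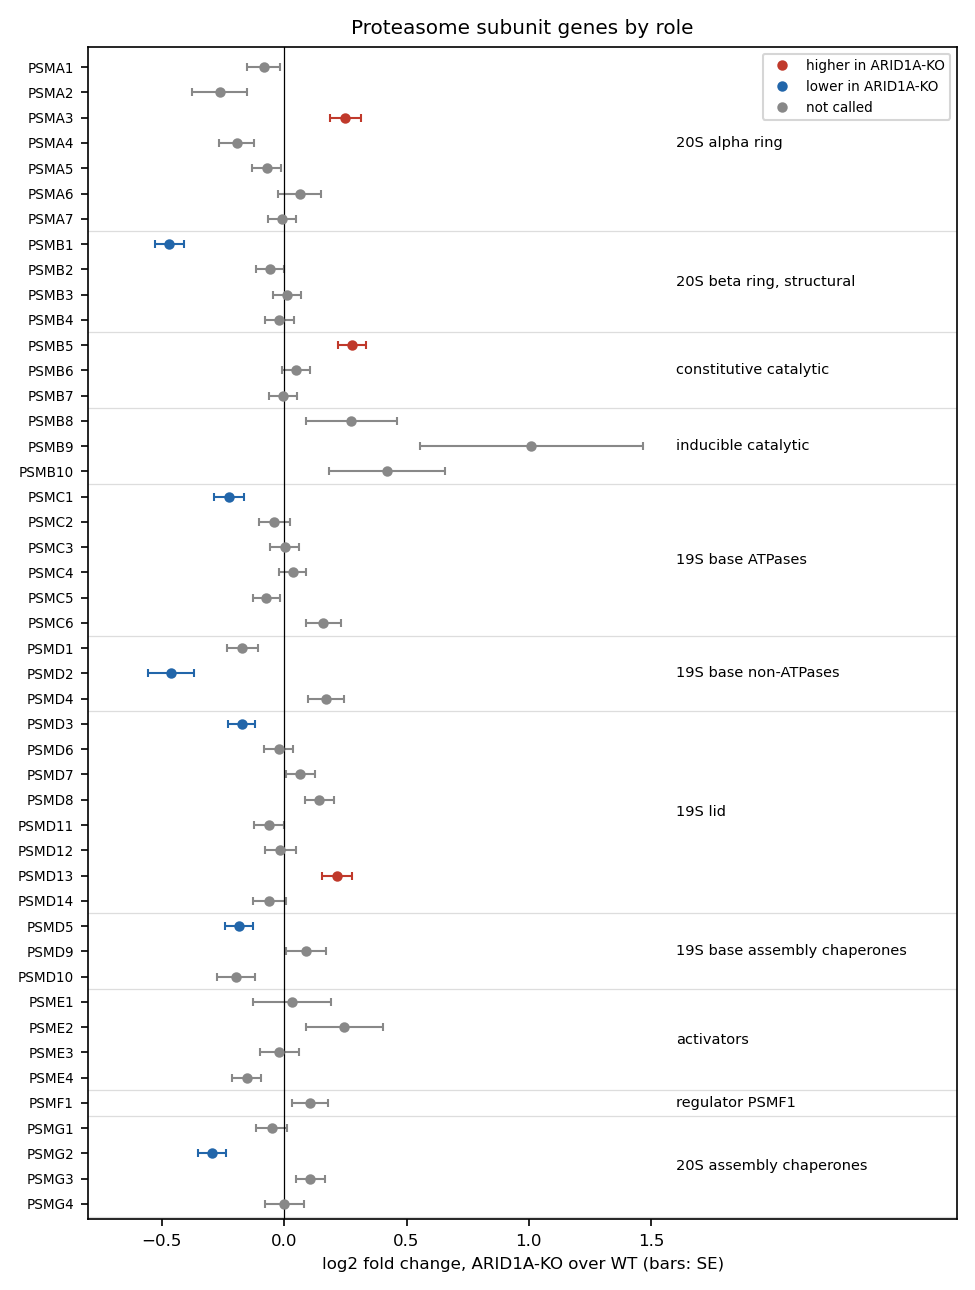
Log2 fold change (x axis, ARID1A-KO over WT) of the 46 tested members grouped by role, with bars of 1 standard error from the edgeR fit and colour for the call. The 9 called members lie between -0.47 and 0.28, and the widest bars belong to the inducible catalytic subunits.

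Among the members with high levels the picture was similar. Of 30 members with a mean of at least 100 CPM, 7 were called (23.3%), against 36.5% of the 2229 genes of that level, and the median absolute log2 fold change was 0.072 in these members and 0.147 in all such genes. CPM values of the genotypes did not overlap for 19 members, 6 higher and 13 lower, while this held for 49.5% of all genes tested. At an unadjusted p under 0.05 (edgeR) the count of members was 16 of 46, beside 45.9% of all genes tested. The 10 members without overlap but without a call were PSMA2, PSMA4, PSMC5, PSMD1, PSMD10, PSME4 and PSMG1 on the lower side and PSMD8, PSMD9 and PSMG3 on the higher side. When ARID1A-KO replicate 3 or ARID1A-KO replicate 4 was left out, 5 members were called in each case, and the calls over all genes fell from 7099 to 5731 and 5285.

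Promoter sequences were compared because subunit genes are known to share control elements. RefSeq windows of GRCh38.p14, from 250 bases before to 50 bases after a gene start, were available for 42 of the 48 genes in 51 windows. The antioxidant response element core TGACNNNGC, the sequence type bound by NFE2L1 and NFE2L2, was found on either strand in 15 of the 51 windows (29.4%) and in 13.3% of the 35116 windows of all genes. Matches to the ETS-type sequence CCGGAAG were present in 29.4% of members' windows and 10.3% of all windows, and GGAAGTG, which can overlap it, in 21.6% and 11.2%. CCAAT was found in 39.2% and 34.6%, and the AP-1 sequence TGACTCA in 5.88% and 4.95%. The longer element TGAGTCAGC, which contains an AP-1 sequence and can overlap TGACNNNGC, was found in 1 member window, that of PSMD9. These shares describe letters in a window and were not tested, and members with neighbouring or shared starts count separately.

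Of the called members, PSMD3, PSMD5 and PSMG2 held TGACNNNGC, and all 3 were lower in ARID1A-KO cells. No window was at hand for the called PSMB1, and of all 15 genes with the element 6 had positive and 9 negative log2 fold changes. Their matches are shown on the strand of the gene, with the element in capitals, together with that of the inducible subunit PSMB9 and the AP-1 match of PSMD2. PSMD3 has a match before and another after the start. The PSMD3 match before the start lies at chr17:39980762-39980786 (plus strand) and the one after it at chr17:39980832-39980856, the PSMD5 match at chr9:120843040-120843064 (minus strand), the PSMG2 match at chr18:12658691-12658715 (plus strand), the PSMB9 match at chr6:32854036-32854060 (plus strand) and the PSMD2 match at chr3:184300511-184300533 (plus strand), all in GRCh38.p14. Where the capitals begin with GC or read TGAGTCA, the element reads in the opposite direction.
PSMD3, before the start: ccctttgtTGACTCGGCcatcggcc
PSMD3, after the start: ttgcagctGCTCCGTCAtcgtgcgg
PSMD5: gctacagtTGACACGGCcctaacgg
PSMG2: gtttcccgTGACCCCGCggccgctc
PSMB9: gcggggctGCCTCGTCActtgtctc
PSMD2: actcattgTGAGTCAcaggaagc

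One recognition site of AsiSI, GCGATCGC, was found in the members' genes and the 1000 bases around them in GRCh37. It lies in intron 1 of PSMD3, at chr17:38137472-38137479 on the plus strand and 422 bases from the gene start. The paper lists this site among its breaks prone to repair by homologous recombination. From RNA sequencing it reports that genes close to such breaks are upregulated in ARID1A-KO cells, whereas PSMD3 was called lower here, by a small difference. This call was lost with total counts alone, no filter, the replicate block and in most fits that left out samples. The paper's statement covers a group of genes, which a single gene does not test. The site is shown in capitals with its flanks.
PSMD3, AsiSI site: ggaacgtgccGCGATCGCgggtgacagc

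The alpha ring gates the core particle. Of its 7 tested genes, PSMA3 (ENSG00000100567.8, chr14:58711549-58738730, plus strand) was called. PSMA3 stood at 157, 144 and 148 CPM in WT replicates 3, 4 and 5 and at 187, 170 and 176 CPM in the ARID1A-KO replicates. All ARID1A-KO samples were above all WT samples. The log2 fold change was 0.25 ± 0.064 (SE, edgeR, adjusted p = 0.0132), and on omission of ARID1A-KO replicate 3 it was 0.21 with an adjusted p of 0.0556. PSMA1, PSMA2, PSMA4, PSMA5, PSMA6 and PSMA7 had log2 fold changes from -0.26 (PSMA2) to 0.06 (PSMA6) and were not called. Of these, PSMA4 was closest to a call, with -0.19 and an adjusted p of 0.0602 (edgeR). PSMA8, the testis form of an alpha subunit, had at most 1 count in a sample and was not tested, and the second rows named PSMA1 and PSMA2 held 0 and at most 17 counts.

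Structural beta subunits carry no proteolytic site of their own. PSMB1 (ENSG00000008018.8, chr6:170844205-170862429, minus strand) showed the largest decrease of any called member. PSMB1 stood at 297, 292 and 278 CPM in WT and at 216, 208 and 203 CPM in ARID1A-KO samples. The samples of the genotypes were well separated, and PSMB1 was 27.8% lower by the fitted fold, as the log2 fold change of -0.47 ± 0.059 gives (SE, edgeR, adjusted p = 0.000309). Its 35 tested neighbours, the other genes with a start within 5 Mb, had a median log2 fold change of -0.49. PSMB2, PSMB3 and PSMB4 had -0.06, 0.01 and -0.02 and were not called.

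Among the constitutive catalytic subunits, PSMB5 carries the chymotrypsin-like, PSMB6 the caspase-like and PSMB7 the trypsin-like activity. PSMB5 (ENSG00000100804.14, chr14:23485752-23504439, minus strand) stood at 133, 137 and 142 CPM in WT and at 169, 163 and 166 CPM in ARID1A-KO samples. All ARID1A-KO samples were above all WT samples, with a log2 fold change of 0.28 ± 0.056 (SE, edgeR, adjusted p = 0.00442). Its 130 tested neighbours had a median of 0.31. PSMB6 stood at 111, 114 and 119 CPM in WT and at 120, 117 and 118 CPM in ARID1A-KO samples. PSMB7 stood at 137, 133 and 137 CPM in WT and at 140, 131 and 135 CPM in ARID1A-KO samples. Both overlapped between genotypes, with log2 fold changes of 0.05 (edgeR, adjusted p = 0.543) and -0.0040 (adjusted p = 0.966).

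The inducible catalytic subunits PSMB8, PSMB9 and PSMB10 replace PSMB5, PSMB6 and PSMB7 in the immunoproteasome. Of these 3 genes, 0 were called by edgeR or by DESeq2 and 0 had an unadjusted p under 0.05, and all had positive log2 fold changes. PSMB9 stood at 1.74, 2.34 and 4.57 CPM in WT and at 3.51, 3.64 and 10.03 CPM in ARID1A-KO samples. The genotypes overlapped because WT replicate 5 was above ARID1A-KO replicates 3 and 4, and the log2 fold change of 1.01 ± 0.46, the largest of all members, was not called (SE, edgeR, adjusted p = 0.114). PSMB8 stood at 27.2, 33.3 and 44.1 CPM in WT and at 36.5, 36.9 and 52.7 CPM in ARID1A-KO samples. PSMB10 stood at 2.01, 2.07 and 2.20 CPM in WT and at 2.38, 2.02 and 3.94 CPM in ARID1A-KO samples. Replicate 5 was the highest sample of each genotype for both genes, and their log2 fold changes were 0.27 (edgeR, adjusted p = 0.284) and 0.42 (adjusted p = 0.196). PSMB11, the catalytic subunit of the thymus, had at most 4 counts in a sample and was not tested.

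Replicate 5 was the highest sample in both genotypes for all 5 interferon-responsive members, PSMB8, PSMB9, PSMB10, PSME1 and PSME2. The same held for 4 of the other 41 members and for 15.5% of all genes tested, and for 11 of 12 genes of MHC class I antigen presentation listed for comparison. The spread within genotypes had a median coefficient of variation of 30.6% for the inducible subunits, 2.70% for the constitutive catalytic subunits and 3.75% for all members. With both samples numbered 5 left out, an alternative chosen after seeing the data, PSMB9 was called with a log2 fold change of 0.81 (edgeR, adjusted p = 0.0148), whereas PSMB8 (0.28, adjusted p = 0.0758), PSMB10 (0.11, adjusted p = 0.667) and PSME2 (0.14, adjusted p = 0.163) were not. With no filter on low counts, PSMB9 (edgeR, adjusted p = 2.04e-08), PSMB8 (0.0142) and PSME2 (0.0148) were called. PSMB9 was not called in any of the 6 fits that left out 1 sample, where its adjusted p reached 0.506. What set replicate 5 apart was not tested.

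Levels per length allow the catalytic pairs to be set against each other. PSMB9 made up 0.721%, 0.943% and 1.74% of the summed TPM of PSMB6 and PSMB9 in WT samples and 1.34%, 1.42% and 3.77% in ARID1A-KO samples. PSMB10 made up 1.67%, 1.78% and 1.83% of PSMB7 and PSMB10 in WT samples and 1.93%, 1.76% and 3.29% in ARID1A-KO samples. PSMB8 made up 15.3%, 17.6% and 21.4% of PSMB5 and PSMB8 in WT samples and 15.9%, 16.6% and 21.9% in ARID1A-KO samples. The PSMB8 share had means of 18.1% ± 3.10 in WT and 18.1% ± 3.25 in ARID1A-KO samples (SD, n = 3). In every sample the constitutive form had the larger share of each pair, and the shares of all pairs overlapped between genotypes. The spans of PSMB9 and PSMB10 overlap other genes on the same strand, and whether reads were lost there was not examined.

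**Figure D2:**
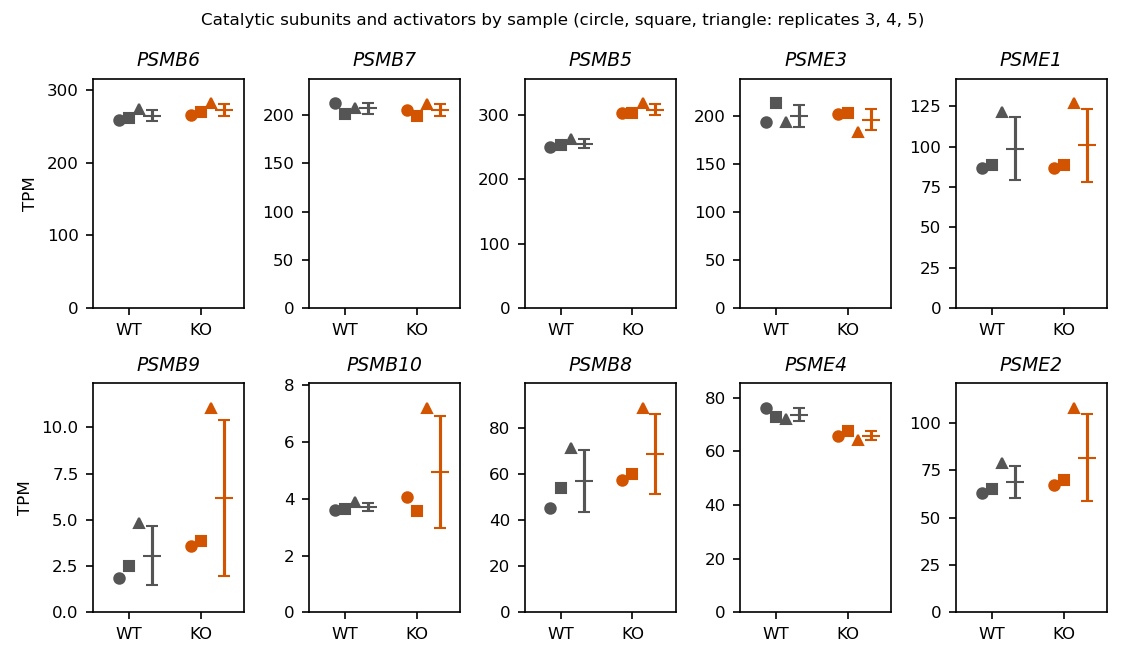
TPM of the constitutive and inducible catalytic subunits and of the activators in each sample (symbols) with the mean and SD (bars) of 3 WT and 3 ARID1A-KO samples, on axes that start at 0. Replicate 5 (triangle) is the highest sample of each genotype for PSMB8, PSMB9, PSMB10, PSME1 and PSME2, and PSMB5 and PSME4 separate the genotypes.

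The ATPase ring of the base unfolds substrates and opens the core gate. PSMC1 (ENSG00000100764.9, chr14:90722839-90738968, plus strand) was the only one of its 6 genes to be called. PSMC1 stood at 118, 108 and 114 CPM in WT and at 101, 93.3 and 96.2 CPM in ARID1A-KO samples. All ARID1A-KO samples were below all WT samples, and the log2 fold change was -0.23 ± 0.061 (SE, edgeR, adjusted p = 0.0180), whereas the adjusted p was 0.0564 on omission of WT replicate 3, 0.0952 on omission of ARID1A-KO replicate 4 and 0.0635 with both samples numbered 5 left out. The 60 tested neighbours of PSMC1 had a median of 0.01. PSMC2 to PSMC6 had log2 fold changes from -0.07 (PSMC5) to 0.16 (PSMC6).

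PSMD1 and PSMD2 are the scaffolds of the base and PSMD4 is a ubiquitin receptor. PSMD2 (ENSG00000175166.12, chr3:184016497-184026842, plus strand) stood at 990, 1223 and 1253 CPM in WT and at 867, 846 and 803 CPM in ARID1A-KO samples. WT replicate 3 was well below the other WT samples but above all ARID1A-KO samples. The log2 fold change of PSMD2 was -0.46 ± 0.094 (SE, edgeR, adjusted p = 0.00433). Its 83 tested neighbours had a median of -0.23. The span of EIF2B5 overlaps that of PSMD2 on the same strand, and whether their exons overlap was not examined. PSMD1 had -0.17 (edgeR, adjusted p = 0.0665) and PSMD4 0.17 (adjusted p = 0.0983) and neither was called.

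The lid holds the deubiquitinase PSMD14 and structural subunits, and its 8 genes had 1 call in each direction. PSMD13 (ENSG00000185627.13, chr11:236546-252983, plus strand) stood at 126, 132 and 135 CPM in WT and at 155, 155 and 146 CPM in ARID1A-KO samples. All ARID1A-KO samples were above all WT samples, with a log2 fold change of 0.22 ± 0.060 (SE, edgeR, adjusted p = 0.0196) beside a median of 0.31 in 80 tested neighbours. The call of PSMD13 was lost on omission of WT replicate 3 (edgeR, adjusted p = 0.0839), ARID1A-KO replicate 3 (0.0703) or ARID1A-KO replicate 4 (0.0879). PSMD3 (ENSG00000108344.10, chr17:38137050-38154213, plus strand), the gene with the AsiSI site, stood at 307, 317 and 321 CPM in WT and at 275, 277 and 286 CPM in ARID1A-KO samples. Its samples did not overlap, but the difference was small, at -0.17 ± 0.056 (SE, edgeR, adjusted p = 0.0368), and its 230 tested neighbours had a median of 0.06. Of the 6 fits on 5 samples, only the omission of ARID1A-KO replicate 5 kept the call of PSMD3, and the adjusted p (edgeR) was 0.0501, 0.0850 and 0.0913 when WT replicates 3, 4 and 5 were omitted in turn and 0.118 and 0.144 when ARID1A-KO replicates 3 and 4 were. PSMD6, PSMD7, PSMD8, PSMD11, PSMD12 and PSMD14 had log2 fold changes from -0.06 to 0.14 and were not called.

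PSMD5, PSMD9 and PSMD10 are chaperones that assemble the base and leave the finished particle. PSMD5 (ENSG00000095261.9, chr9:123577774-123605262, minus strand) stood at 62.3, 62.8 and 60.7 CPM in WT and at 55.4, 52.7 and 55.2 CPM in ARID1A-KO samples. All ARID1A-KO samples were below all WT samples, with a log2 fold change of -0.19 ± 0.057 (SE, edgeR, adjusted p = 0.0297) beside a median of -0.11 in 61 tested neighbours. Its adjusted p (edgeR) was 0.0605 and 0.0718 when WT replicates 3 and 4 were omitted in turn and 0.0721 and 0.144 when ARID1A-KO replicates 3 and 4 were. PSMD10, also known as gankyrin, had -0.20 (edgeR, adjusted p = 0.0722) and PSMD9 0.09 (adjusted p = 0.441).

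The PSMG chaperones assemble the alpha ring. PSMG2 (ENSG00000128789.16, chr18:12658737-12725739, plus strand) stood at 99.6, 97.4 and 94.6 CPM in WT and at 81.9, 77.6 and 78.2 CPM in ARID1A-KO samples. All ARID1A-KO samples were below all WT samples, and PSMG2 fell by 0.30 on the log2 scale, with an SE of 0.056 (edgeR, adjusted p = 0.00322). The median of its 56 tested neighbours was -0.17. PSMG1, with which PSMG2 forms a dimer, had -0.05 (edgeR, adjusted p = 0.568). PSMG3 and PSMG4, which also pair with each other, had 0.11 and 0.0009 and were not called.

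**Figure D3:**
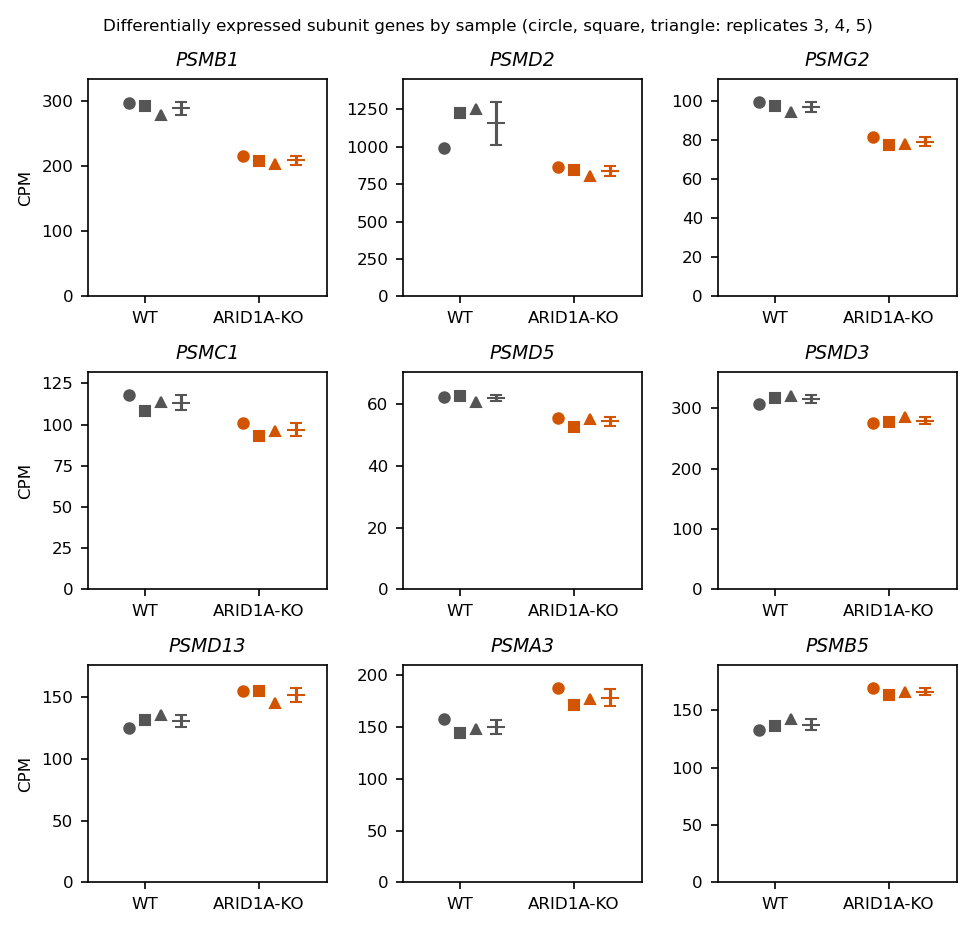
CPM (y axis, from 0) of the 9 called members in each WT and ARID1A-KO sample (symbols) with the mean and SD (bars), n = 3 per genotype. The genotypes do not overlap in any panel, with the ARID1A-KO samples lower in 6 panels and higher in 3.

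Of the 4 activators, which open the core particle without ATP, 0 were called by edgeR or by DESeq2, and only PSME4 had an unadjusted p under 0.05. PSME1 stood at 46.4, 48.3 and 66.4 CPM in WT and at 49.2, 48.2 and 66.8 CPM in ARID1A-KO samples. PSME2, its partner, stood at 67.5, 71.2 and 86.3 CPM in WT and at 75.9, 76.5 and 114 CPM in ARID1A-KO samples. Both genes overlapped between genotypes, with log2 fold changes of 0.03 (edgeR, adjusted p = 0.903) and 0.25 (adjusted p = 0.256). PSME3, the nuclear activator, stood at 284, 319 and 290 CPM in WT and at 313, 304 and 265 CPM in ARID1A-KO samples, with no separation. PSME4 stood at 236, 228 and 227 CPM in WT and at 214, 212 and 195 CPM in ARID1A-KO samples. It was lower in all ARID1A-KO samples, but its log2 fold change of -0.15 was not called (edgeR, adjusted p = 0.0761). PSMF1, an inhibitor of the core particle, had 0.11 (adjusted p = 0.296).

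Fold changes of the members ran alongside those of their genomic neighbours. Across the 46 members, the log2 fold change and the median log2 fold change of tested genes within 5 Mb had Pearson's r of 0.57 and Spearman's rho of 0.72, as a description, since members such as PSMB8 and PSMB9 or PSME1 and PSME2 share neighbours and all values come from the same samples. Of the 9 called members, 7 had the sign of their neighbours' median, and PSMC1 (neighbours -0.23 against 0.01) and PSMD3 (-0.17 against 0.06) did not. For 9 members the neighbours' median was past 0.2 in either direction, and 4 of these were called, namely PSMB1, PSMB5, PSMD2 and PSMD13. Over all genes tested, 36.2% were called. The comparison with neighbours was not made over all genes tested, so it does not show a trait particular to proteasome genes. PSMD7 on chromosome 16 had a log2 fold change of 0.07 where its 90 neighbours had a median of 0.54, and PSMD14 on chromosome 2 had -0.06 where 42 neighbours had -0.34. PSMB9 stood apart in the other direction, at 1.01 ± 0.46 (SE) beside a median of 0.04 in 233 tested neighbours, but it was not called. Close to it, the antigen presentation genes TAP1 and TAP2 had 0.90 and -0.28, and both were called. The contribution of regional shifts to the calls was not tested.

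**Figure D4:**
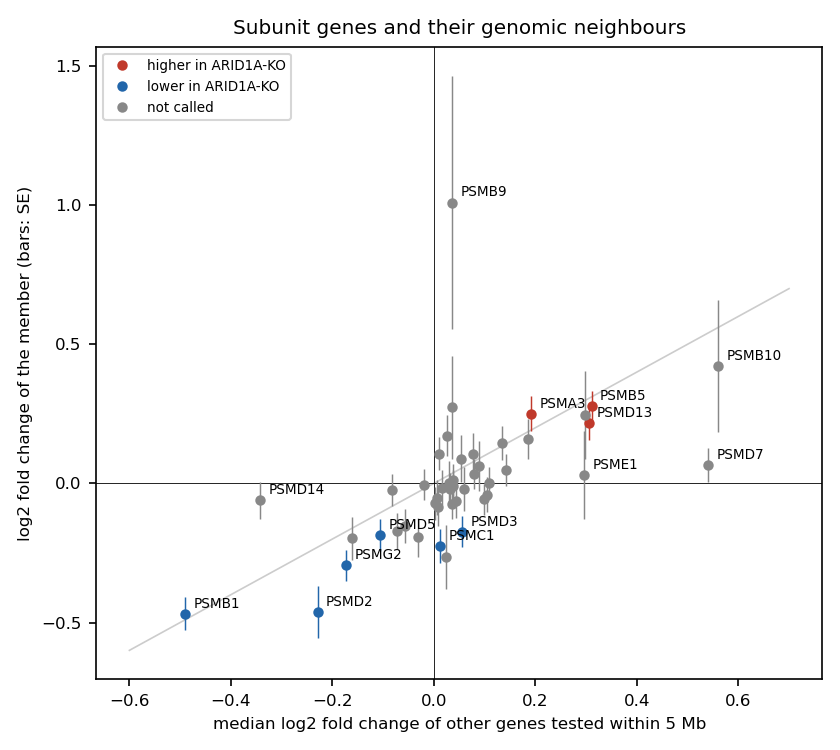
Log2 fold change of each tested member (y axis, bars of 1 SE) against the median log2 fold change of the other tested genes within 5 Mb (x axis), with the line of equality. PSMB1, PSMB5 and PSMD13 lie near the line, and PSMD7 and PSMD14 near 0 beside shifted neighbours. PSMB9, which was not called, lies far above the line with a wide bar.

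Levels in TPM differed more between members than between genotypes. In WT cells 27 of the 46 tested members had a mean of at least 100 TPM, 13 lay between 10 and 100 and 6 below 10, and the same counts were found in ARID1A-KO cells. The highest levels in WT were those of PSMB3 (713 ± 25.1 TPM), PSMD2 (695 ± 79.5) and PSMA7 (649 ± 27.7, SD, n = 3), where PSMB3 and PSMD2 overlapped. PSMD2 had 503 ± 4.25 TPM in ARID1A-KO samples and moved to the third rank. The lowest were PSMB9 (3.07 ± 1.57), PSMD9 (3.70 ± 0.017), PSMB10 (3.71 ± 0.14) and PSMG4 (4.98 ± 0.14, SD, n = 3). PSMA6 (9.02 TPM) and PSMA2 (7.07 TPM) were far below the other alpha subunits, which ranged from 26.6 TPM for PSMA1 to PSMA7 at 649 TPM, although each alpha subunit is present in equal number in the particle. The span of PSMA1 overlaps that of COPB1 on the same strand, PSMA2 that of the second row of its own name, PSMA6 that of KIAA0391 and PSMD9 that of WDR66. Likewise the span of PSMB9 overlaps that of TAPSAR1 (mean of 50 counts) and PSMB10 that of CTC-479C5.12 (mean of 282 counts). Reads in any exons shared there can be lost or shared in counting. The exonic lengths listed for PSMA2, PSMA6, PSMD9 and PSMG4, which enter their TPM, were 5332, 6474, 8778 and 10418 bases.

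**Figure D5:**
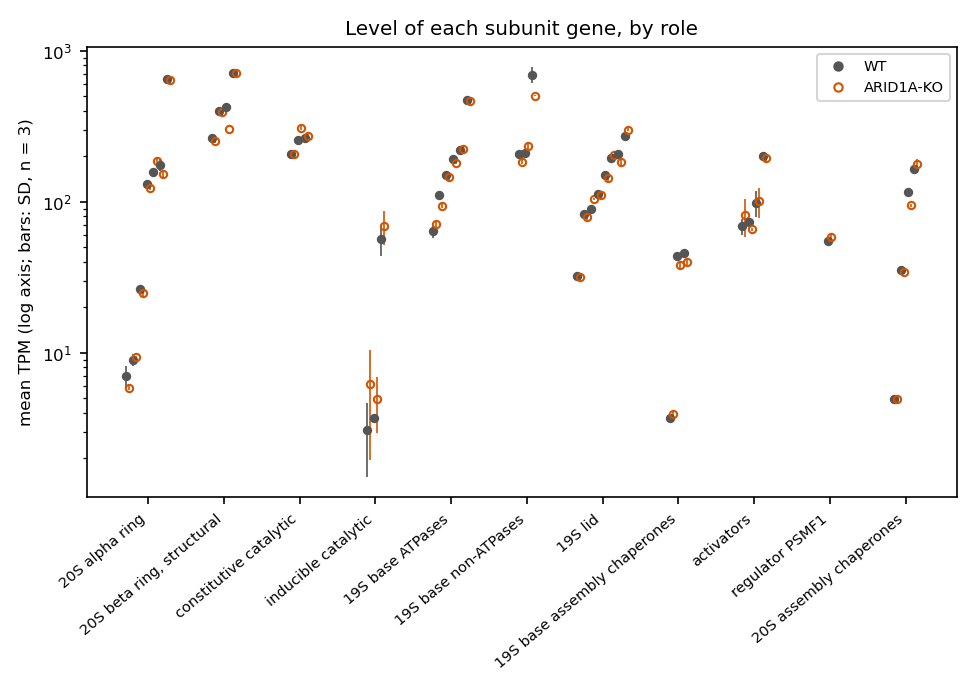
Mean TPM (log axis) of each tested member in WT (filled) and ARID1A-KO (open) samples by role, with SD bars, n = 3 per genotype. Within most roles the members differ from each other by more than the genotypes do, and the inducible catalytic subunits have the widest bars.

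Summed over all tested members, the level was 8120 ± 117 TPM in WT and 7835 ± 224 TPM in ARID1A-KO samples (SD, n = 3). The base scaffolds and PSMD4 together had 1113 ± 75.9 TPM in WT and 921 ± 10.3 TPM in ARID1A-KO samples, mostly through PSMD2. Structural beta subunits had 1798 ± 47.9 and 1664 ± 44.7 TPM, and constitutive catalytic subunits 727 ± 14.7 and 786 ± 22.6 TPM. The lid had 1144 ± 12.5 and 1156 ± 20.9 TPM. For single genes the exact permutation test of TPM gave p = 0.1 for all 9 called members, which is the smallest p that 3 samples against 3 allow.

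Genes that work with the proteasome were taken as a comparison list of 29 names, all tested. Of these, 9 were called, 4 higher and 5 lower in ARID1A-KO cells (36.2% of all genes tested were called). ZFAND2A, a stress-induced zinc finger protein that associates with the proteasome, stood at 18.4, 21.9 and 18.1 CPM in WT and at 32.1, 29.3 and 24.6 CPM in ARID1A-KO samples. It was higher in all ARID1A-KO samples, with a log2 fold change of 0.55 (edgeR, adjusted p = 0.00483).

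The regulators and assembly factors of this list had small fold changes. NFE2L1 stood at 379, 385 and 388 CPM in WT and at 441, 446 and 423 CPM in ARID1A-KO samples. It was higher in all ARID1A-KO samples, at 0.18 ± 0.057 (SE, edgeR, adjusted p = 0.0312), but lost the call on omission of WT replicate 3 (adjusted p = 0.105), 4 (0.0719) or 5 (0.0677) and of ARID1A-KO replicate 3 (0.0866) or 4 (0.136). NFE2L2 stood at 90.7, 83.3 and 79.2 CPM in WT and at 96.2, 93.5 and 89.8 CPM in ARID1A-KO samples, with overlap and a log2 fold change of 0.14 (edgeR, adjusted p = 0.128). POMP, which matures the core particle, stood at 114, 111 and 101 CPM in WT and at 119, 114 and 110 CPM in ARID1A-KO samples and was not called (0.06, adjusted p = 0.489). The ubiquitin receptor ADRM1 (0.25) and the VCP cofactor UFD1 (0.25) were the other genes called higher, and USP14 (-0.27), IPO9 (-0.26) and ECPAS (-0.20) were among those called lower. Of these, ADRM1 lost its call on omission of WT replicate 3 (edgeR, adjusted p = 0.0528) or ARID1A-KO replicate 4 (0.0710), ECPAS on omission of ARID1A-KO replicate 4 (0.0798), and UFD1 with both samples numbered 5 left out (0.0506).

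Among 12 tested genes of MHC class I antigen presentation, 3 were called higher and 1 lower in ARID1A-KO cells. This share of 33.3% was near the 36.2% called among all genes tested, but it depended on the fit. HLA-B and HLA-C were not called here (0.38 and 0.46, edgeR, adjusted p = 0.0569 and 0.0509). DESeq2 called both higher (adjusted p = 0.0203 and 0.0122), as did edgeR with upper-quartile scaling, total counts alone, no filter and the replicate block. TAP1, the peptide transporter subunit whose gene adjoins PSMB9, stood at 27.3, 29.9 and 44.8 CPM in WT and at 52.5, 56.8 and 80.7 CPM in ARID1A-KO samples. Its samples did not overlap, unlike those of PSMB9, and the log2 fold change was 0.90 ± 0.20 (SE, edgeR, adjusted p = 0.00762). HLA-E stood at 88.4, 101 and 115 CPM in WT and at 139, 143 and 153 CPM in ARID1A-KO samples. This class I heavy chain was higher in all ARID1A-KO samples, by 0.51 on the log2 scale (edgeR, adjusted p = 0.00255). TAP2, the other transporter subunit, was lower, at -0.28 (edgeR, adjusted p = 0.0318), and lost the call on omission of WT replicate 4 (adjusted p = 0.0808) or 5 (0.0993) or of ARID1A-KO replicate 3 (0.103) or 4 (0.114). With total counts alone the call of TAP2 was lost too (edgeR, adjusted p = 0.0719).

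Processed pseudogenes can take reads from their parent genes. Of 30 rows named as pseudogenes of members, 16 were at 0 in every sample and 27 had at most 10 counts. Those tested were PSMC1P1, PSME2P2 and PSMD10P2, of which PSMD10P2 was called higher at 1.29 (edgeR, adjusted p = 0.0173), with at most 195 counts in a sample, while its parent PSMD10 was not called.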

How the data were processed

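Per the labels and the study's methods, paired reads from stranded libraries were mapped by STAR to GRCh37 and assigned to genes by featureCounts, within the Roddy workflow. The authors deposited whole-number counts per gene, unstranded and by strand, without normalization, and TPM values. The columns on the reverse strand were used. Of the TPM columns, the one scaled to the sum over all genes was taken, since the other sums to more. The methods name a later annotation release than the gene names in the tables point to, so exonic lengths and TPM rest on the gene models as listed there. The labels give the molecule as polyA RNA, whereas the protocol names a total RNA kit.

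Counts were filtered with filterByExpr, scaled by TMM and tested with edgeR's quasi-likelihood test (edgeR 4.0.16, R 4.3.3) on all 6 samples without covariates, with Benjamini-Hochberg adjustment over 19599 genes. A gene was called at an adjusted p under 0.05. The common biological coefficient of variation was 0.111. Counting error is small at this depth except for the lowest genes. Replicates differed by more than sampling noise (chi-square per gene 7.20 to 33.9). TPM values were compared with two-sided exact permutation tests (SciPy 1.17.1, Python 3.11.15).

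Members and lists were chosen with earlier results of these data known. Values in every sample are given for ARID1A, the called members (at most 12, by absolute log2 fold change), the catalytic pairs, PSME1 to PSME4, the 3 largest called genes of each comparison list, NFE2L1, NFE2L2 and POMP. SEM1, ECPAS and UFD1 carry older names in the tables, and PECAM1 was not analysed here. The results of some genes of the comparison lists are not reported here.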

Additional observations from a re-analysis of the deposited data

How the results depend on the processing

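PSMB1, PSMB5, PSMD2 and PSMG2 kept their calls and directions in all 15 alternatives (RLE, upper-quartile or total-count scaling, DESeq2 1.42.0, a minimum of 10 counts in all samples, no filter, unstranded counts, a replicate block, each sample left out and, added after seeing the data, both samples numbered 5 left out). No called value changed sign. At an adjusted p under 0.01, 4 members were called, 1 higher and 3 lower, with 2 partner genes higher and 4414 genes in all (2044 higher, 2370 lower). Leaving out samples gave 5 to 11 called members, 1 to 5 of them higher and 3 to 7 lower, and 2 to 7 partner genes higher. Members called higher numbered 5 with total counts alone, where PSMD3 (adjusted p = 0.102) and PSMD5 (0.0995) lost their calls, 6 with no filter, where they did so too, and 5 without both samples numbered 5. With the replicate block 12 members were called, 6 of them higher, adding PSMA4, PSMB8, PSMB9 and PSME2 and losing PSMD3. The sources do not say whether same-numbered samples share more than a number. Correlations of their deviations were -0.18, 0.27 and 0.18, and not every sample was closest to its own number. Replicate 5 was, however, the highest sample in both genotypes for all 5 interferon-responsive members, which include the added PSMB8, PSMB9 and PSME2. PSMA4 was also called by DESeq2 (adjusted p = 0.0489). Causes of these changes were not tested. PSMB9 and PSMB10 had as few as 116 and 111 counts in a sample. Their coefficients of variation were 51.8% in WT and 65.1% in ARID1A-KO samples for PSMB9, and 4.65% and 36.8% for PSMB10. How much of this spread comes from depth was not tested.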
